A study of Mus musculus with 2 samples.

Results

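Actb and Actg1 encode the cytoplasmic actins, beta-actin and gamma-actin, and are 2 of the 27998 genes counted in 1 SRF knockout (KO) and 1 wild-type (WT) library of mouse induced pluripotent stem cells (iPSCs). They were chosen by name, and their levels, shares of cells, per-cell distributions and correlation were read in cells that passed 3 limits. These were at least 1000 detected genes, at most 10% mitochondrial counts, and fewer than 5 unique molecular identifiers (UMIs) summed over the fibroblast genes Col1a2, Col3a1 and Acta2. The limits kept 975 of 1073 KO cell barcodes and 909 of 954 WT barcodes. The KO cells were SRFΔ/Δ, lacking serum response factor, and the WT cells were SRFf/f, with the floxed alleles in place. Both were grown with serum, captured on the 10x Genomics Chromium platform and sequenced on an Illumina NovaSeq. Each genotype is 1 library, so no test between genotypes was possible: intervals are exact, at 95%, and cover counting error only. How far cultures, clones or library preparations differ cannot be read from them.

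Actin monomers assemble into filaments that give a cell its cortex and carry its protrusions and its contractile force. Serum response factor (SRF) is a transcription factor that binds the CArG box, a sequence with CC, a run of A or T bases, and GG, in the promoters of actin genes. Its cofactors of the MRTF family are held inactive by free actin monomers, so SRF and the actin pool form a known feedback loop. Beta-actin and gamma-actin proteins are nearly the same, and many laboratories use Actb as a reference gene.

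Both genes lie on the minus strand of GRCm38, per GENCODE M21. Actb (ENSMUSG00000029580) spans chr5:142903115-142906754 and Actg1 (ENSMUSG00000062825) spans chr11:120345690-120348542. The RefSeq promoter table (GRCm38.p6) matched 1 of the 2 genes. It holds 300 bases around the start of Actg1, and the upstream stretch chr11:120348546-120348745 is given on the minus strand, 5′ to 3′, because it carries a CArG box, in capitals.
Actg1: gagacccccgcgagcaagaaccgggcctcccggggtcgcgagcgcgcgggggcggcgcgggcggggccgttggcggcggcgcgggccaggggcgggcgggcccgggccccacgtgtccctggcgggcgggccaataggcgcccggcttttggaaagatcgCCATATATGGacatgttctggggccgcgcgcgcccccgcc
The box lies 90 to 81 bases before the RefSeq start and 43 to 34 bases before the GENCODE start. The motif searched was CC, 6 bases of A or T, then GG, on both strands. It was present in 535 of 32851 promoter windows of this length (1.63%), and a match is a description of the letters, not a measured site.

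The coding parts of the 2 transcripts, 1128 bases each, were identical at 88.7% of positions, with a longest shared run of 62 bases. Their 3′ untranslated regions, 683 and 700 bases long, shared no run over 11 bases. Of the 50-base windows of Actb coding sequence, 2.78% also occurred in Actg1, and of those of the 3′ untranslated region none did. How reads common to both genes were counted is not given in the sources used here.

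The labels were checked on Srf, the deleted gene, which had 3 UMIs in the KO library and 204 UMIs in the WT library. That is 0.143 UMIs per 1000000 UMIs (CPM; interval 0.0294 to 0.417) against 8.66 CPM (7.51 to 9.93), a log2 ratio of -5.71 (-8.21 to -4.36). The part of Srf that was deleted is not given in the sources used here. The kept cells held 21047611 UMIs in KO, with a median of 21456 per cell, and 23556750 UMIs in WT, with a median of 26537. All 10 genes of the pluripotency list were detected at a mean of at least 10 CPM, and none of the 12 fibroblast genes was, of which the cell limits hold down 3. The fibroblast list summed to 23.5 CPM in KO and 17.4 CPM in WT. Primitive endoderm markers stood at 3 or more UMIs per 7500 in 113 KO cells (11.6%) and 4 WT cells (0.440%). Mitochondrial counts were under 1% in 244 KO cells and in 16 WT cells, and these KO cells were shallow, with a median of 8632 UMIs against 24423 UMIs in the other 731. The libraries shared 2 cell barcodes.

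Both cytoplasmic actins were lower in the KO library when all kept cells were summed, and each by more than 3-fold. Actb, the beta-actin gene, had 6757 UMIs in KO, or 321 CPM (313 to 329), and 25147 UMIs in WT, or 1068 CPM (1054 to 1081). Actg1, the gamma-actin gene, had 9829 UMIs in KO, or 467 CPM (458 to 476), and 42816 UMIs in WT, or 1818 CPM (1800 to 1835). The log2 ratio of KO over WT was -1.73 (-1.77 to -1.69) for Actb, or 30.1% of the WT level. For Actg1 it was -1.96 (-1.99 to -1.93), or 25.7% of the WT level. Both genes were past a 2-fold difference downward, a line crossed in that direction by 0.572% of the 6470 genes whose mean was 10 CPM or more, and in the other by 1.13%. The Actb ratio depended on which cells were summed: it was -1.40 in cells of at least 20000 UMIs and -1.11 without cells that had 20 or more Actb UMIs per 7500, where Actg1 had -2.11 and -2.02. Among the 6470 genes, over all kept cells, Actg1 had the 12th lowest ratio and Actb the 16th lowest.

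Of 51 detected genes in 5 lists of other actin machinery, 2 (3.92%) were past 2-fold downward, beside 0.572% of all 6470 genes, and 0 upward, beside 1.13%. Among the other actin isoforms, Acta1, Acta2, Actc1 and Actg2 were all under 10 CPM, and Actc1 had no UMI in either library. Acta1 had 6 UMIs in KO and 24 in WT, and Actg2 had 10 and 0. Acta2, which the cell limits hold down, had 50 UMIs in KO and 10 in WT (log2 ratio 2.43, interval 1.49 to 3.63). The 15 detected genes of actin folding and maturation, most of them subunits of the CCT chaperonin and of prefoldin, had no member past 2-fold. Their median log2 ratio was -0.05, between -0.39 for Pdcl3 and 0.18 for Cct3, beside a median of 0.07 over all 6470 genes. Of the 11 detected genes that bind monomers or turn filaments over, 1 was past 2-fold downward. That was Wdr1, which helps cofilin take filaments apart, with 14.7 CPM in KO and 32.6 CPM in WT (log2 ratio -1.15, interval -1.35 to -0.96). Tmsb4x, whose product thymosin beta-4 holds actin monomers, had the highest ratio of this list, at 2020 CPM in KO and 1472 CPM in WT (log2 ratio 0.46).

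The Arp2/3 complex and formins, which start new filaments, had 0 of 10 detected genes past 2-fold, with ratios from -0.40 (Arpc1b) to 0.17 (Diaph1). The 6 detected genes of other actin-related proteins also had none, with ratios from -0.09 (Actr10) to 0.25 (Actr1a). A list of SRF targets that cross-link or contract filaments had 1 of 9 detected genes past 2-fold, also downward, and a median log2 ratio of -0.32. That gene was Cnn2, which encodes the actin-binding protein calponin 2, with 4.13 CPM in KO and 36.8 CPM in WT (log2 ratio -3.15, interval -3.49 to -2.84). The highest member was Tagln2, at 0.47. Below the 10 CPM limit, and so not counted, Tagln, a smooth muscle actin-binding protein gene, had 53 UMIs in KO and 212 in WT (log2 ratio -1.83, interval -2.30 to -1.40). Myl9, a myosin light chain gene, had 14 and 42 UMIs (-1.39). The other genes of this list under the limit were not past 2-fold: Vcl had 165 and 280 UMIs (-0.60) and Fhl2 had 9 and 15 (-0.54). The MRTF cofactor genes were thinly counted, with Mkl1 at 3.56 CPM in KO and 4.88 CPM in WT and Mkl2 at 2.95 and 3.52 CPM.

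**Figure D1:**
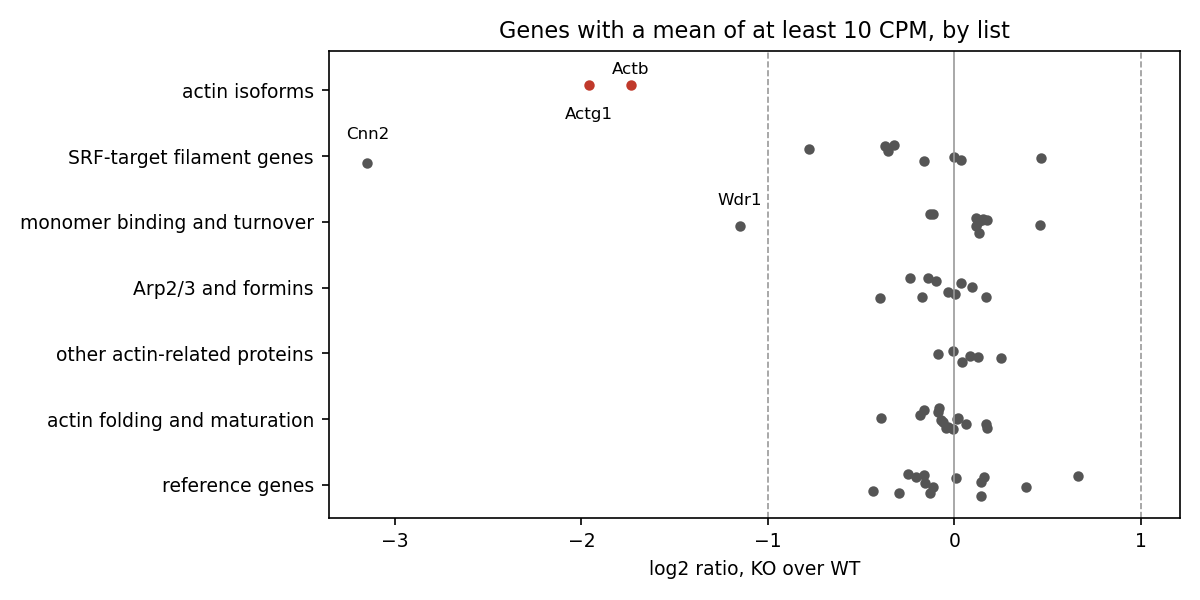
Log2 ratio of KO over WT (horizontal axis) for each gene whose mean was 10 CPM or more, by gene list (rows); each point is 1 gene, red points are the cytoplasmic actins and dashed lines mark a 2-fold difference. Actb, Actg1, Cnn2 and Wdr1 are the named points left of the lower line, and the reference genes lie between -0.44 and 0.66.

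As Actb is itself a common reference gene, 14 other such genes were set beside it. None was past 2-fold, and their median log2 ratio was -0.12, from -0.44 for B2m to 0.66 for Pgk1. Gapdh, a glycolytic enzyme, had 2111 CPM in KO and 2311 CPM in WT. Ppia, a prolyl isomerase, had 3913 CPM in KO and 4234 CPM in WT. Relative to each of the 14 genes, both actins were still lower in the KO library.

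The difference was also present cell by cell. To compare cells of unequal depth, each cell was thinned at random to 7500 UMIs, which kept 838 KO and 866 WT cells and left out 137 and 43 shallower ones. Thinned Actg1 had a median of 3 UMIs per cell in KO, with a 10th to 90th percentile range of 1 to 7 and a highest value of 38. In WT its median was 12 UMIs, with a range of 5 to 21 and a highest value of 51. The middle parts of the Actg1 distributions thus overlapped little, and WT had 578 cells (66.7%) with at least 10 UMIs against 33 cells (3.94%) in KO. For Actb the median was 2 UMIs in KO, with a 10th percentile of 0 and a 90th of 5.3, and 5 UMIs in WT, with percentiles of 2 and 36.

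At least 1 thinned Actb UMI was found in 84.8% of KO cells (82.2 to 87.2) and in 98.6% of WT cells (97.6 to 99.3). For Actg1 the shares were 91.4% (89.3 to 93.2) and 99.9% (99.4 to 99.997). Without thinning they were 97.1% and 99.9% for Actb, and 98.2% and 99.9% for Actg1, so nearly every KO cell had counts of both genes at full depth. No cell type in these libraries is known to lack cytoplasmic actin, so no background share from free RNA can be given.

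**Figure D2:**
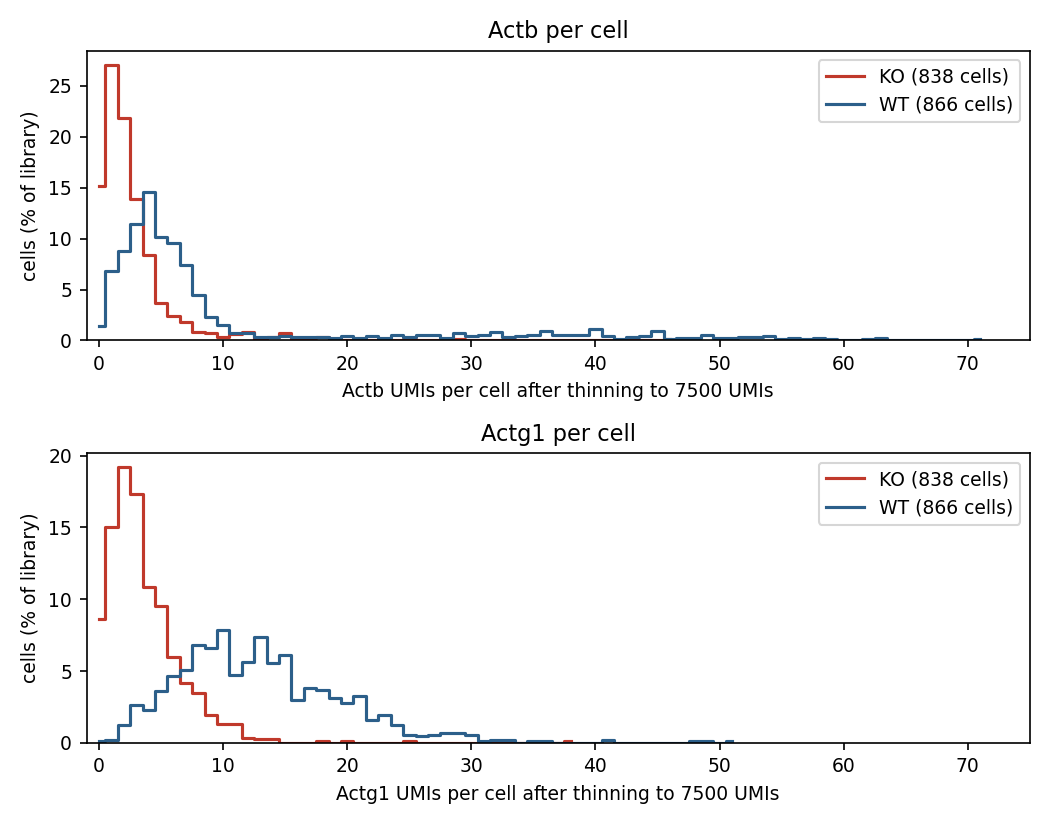
Share of cells of a library (vertical axis, %) at each number of Actb (upper panel) or Actg1 (lower panel) UMIs per cell after thinning to 7500 UMIs; red is KO (838 cells) and blue is WT (866 cells). Actg1 in WT forms 1 broad hump around its median of 12 UMIs, while Actb in WT has a main hump near 5 UMIs and a long tail up to 71 UMIs.

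The shapes of the distributions differed between the genes. In WT, 154 of 866 cells (17.8%, interval 15.3 to 20.5) had at least 20 thinned Actb UMIs, and in KO 4 of 838 cells did (0.477%, 0.130 to 1.22). The spread beyond Poisson sampling, given as the squared coefficient of variation less the reciprocal of the mean (excess CV2), was 1.33 for Actb in KO and 1.53 in WT. Those values ranked 59th of 1784 and 30th of 1695 genes whose thinned mean was 0.5 UMIs or more and whose medians were 0.159 and 0.109. Actg1 had an excess CV2 of 0.463 in KO and 0.192 in WT, ranks 249 and 461. Relative to its mean, and over all thinned cells, Actg1 was thus more variable in KO than in WT (log2 ratio of excess CV2 1.27). By mitochondrial share, its excess CV2 in KO was 0.198 in 145 cells under 1% and 0.503 in 693 cells at 1 to 10%. In WT it was 0.431 in 10 cells under 1% and 0.188 in 856 cells at 1 to 10%. For Actb the log2 ratio was -0.21, and it was 0.64 without thinning and 0.39 with fibroblast-marker cells kept. In cells of at least 20000 UMIs, an alternative chosen after seeing the data, the Actg1 value was 0.54, and without thinning it was 0.08.

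Depth set Actb and Actg1 apart. In WT, Actb stood at 5023 CPM in cells under 10000 UMIs and at 3381 CPM in cells of 10000 to 20000 UMIs. It was 752, 643 and 680 CPM in cells of 20000 to 30000, of 30000 to 40000, and of 40000 UMIs and more. The shallow WT cells were therefore high in Actb, and the 3 deeper classes lay close together. In KO, Actb was also highest in the 2 shallow classes, over a smaller range, with 543, 501, 279, 246 and 246 CPM from the shallowest to the deepest class.

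Actg1 in WT ran the other way, with 1510, 1515, 1744, 1932 and 1984 CPM from the shallowest to the deepest class. In KO it had 733 CPM under 10000 UMIs, and 520, 411, 438 and 478 CPM above. The KO level was below the WT level in all 5 depth classes for both genes. The size of the difference depended on depth: the Actb log2 ratio was -3.21, -2.75, -1.43, -1.38 and -1.46 from shallow to deep, and that of Actg1 was -1.04, -1.54, -2.09, -2.14 and -2.05. Summed over cells of at least 20000 UMIs, the Actb ratio was -1.40 and the Actg1 ratio -2.11.

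**Figure D3:**
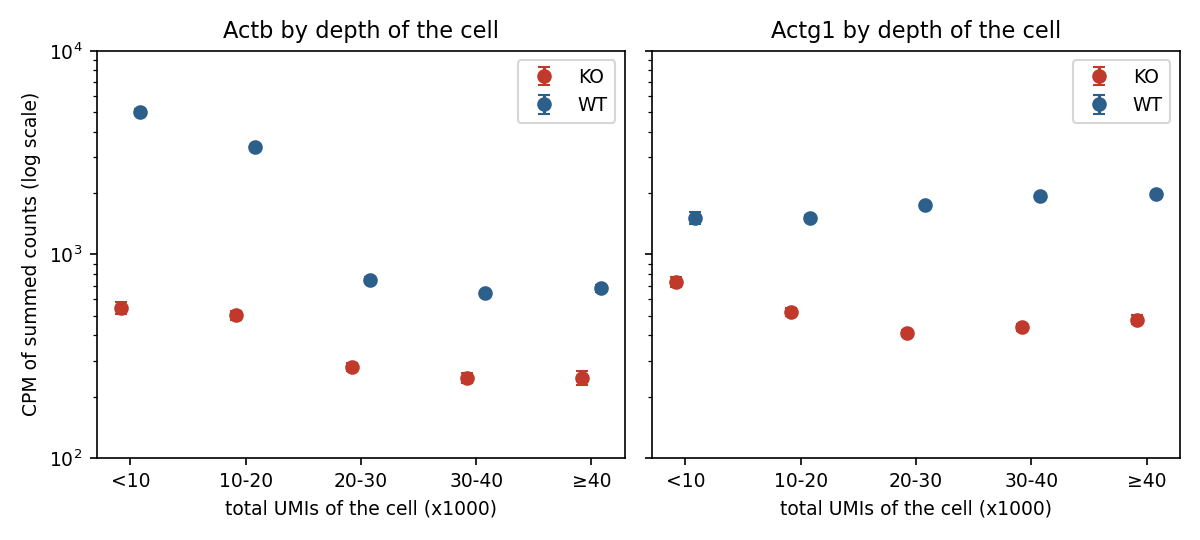
CPM of counts summed over the cells of a depth class (vertical axis, log scale) against the total UMIs of the cell (horizontal axis, in units of 1000) for Actb (left) and Actg1 (right); red is KO, blue is WT, and bars are 95% counting intervals, mostly smaller than the points. WT Actb is at 5023 and 3381 CPM in the 2 shallow classes and between 643 and 752 CPM in the others, and every KO point lies below the WT point of its class.

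The mix of the 2 actins moved with depth in the same way. Actb made up 40.7% of actin UMIs (Actb plus Actg1) in KO (39.99 to 41.5) and 37.0% in WT (36.6 to 37.4). In WT the share was 76.9% in cells under 10000 UMIs, 69.1% at 10000 to 20000, and then 30.1%, 24.98% and 25.5%. In KO it was 42.6%, 49.1%, 40.4%, 36.0% and 34.0%. Actb thus held a smaller share in KO than in WT in the 2 shallow classes and a larger one in the 3 deeper classes. In cells of at least 20000 UMIs the KO share was 10.6 percentage points above the WT share, against 3.74 points over all cells. The share is set between groups of cells only, since UMI capture may differ between the genes.

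Cells with few mitochondrial counts had more of both actins within the KO library. In the 244 KO cells under 1%, Actb was at 435 CPM (411 to 459) and Actg1 at 699 CPM (668 to 730). In the 731 KO cells at 1 to 10%, they were at 303 CPM (295 to 311) and 431 CPM (421 to 440). For WT the 16 cells under 1% had 916 CPM (808 to 1034) of Actb and 1951 CPM (1792 to 2120) of Actg1, and the other 893 had 1069 and 1816 CPM. The KO over WT log2 ratio was -1.08 for Actb and -1.48 for Actg1 under 1%, and -1.82 and -2.08 at 1 to 10%. The values under 1% rest on 16 WT cells.

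For Actg1 the difference between mitochondrial classes in KO remained in summed counts within depth classes, apart from the shallowest. From the shallowest to the deepest class, KO cells under 1% had 745, 700, 625, 658 and 747 CPM of Actg1, and KO cells at 1 to 10% had 705, 461, 395, 425 and 468 CPM. The counting intervals of the 2 classes, which do not cover the spread between cells, overlapped only under 10000 UMIs. There the median Actg1 CPM per cell was 715 under 1% and 488 at 1 to 10%, so the medians did differ. The 2 deepest classes held 9 and 2 cells under 1%. Actb had no such constant order. It was lower in the cells under 1% in the shallowest class, at 411 against 841 CPM, and higher at 20000 to 30000 UMIs, at 510 against 262 CPM. In that latter class the median CPM per cell was 363 against 223, and the thinned median was 2 UMIs in both. At least 10 thinned Actb UMIs were found in 2 of its 24 cells under 1% and in 2 of its 309 others. In the other 3 classes the Actb intervals overlapped.

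**Figure D4:**
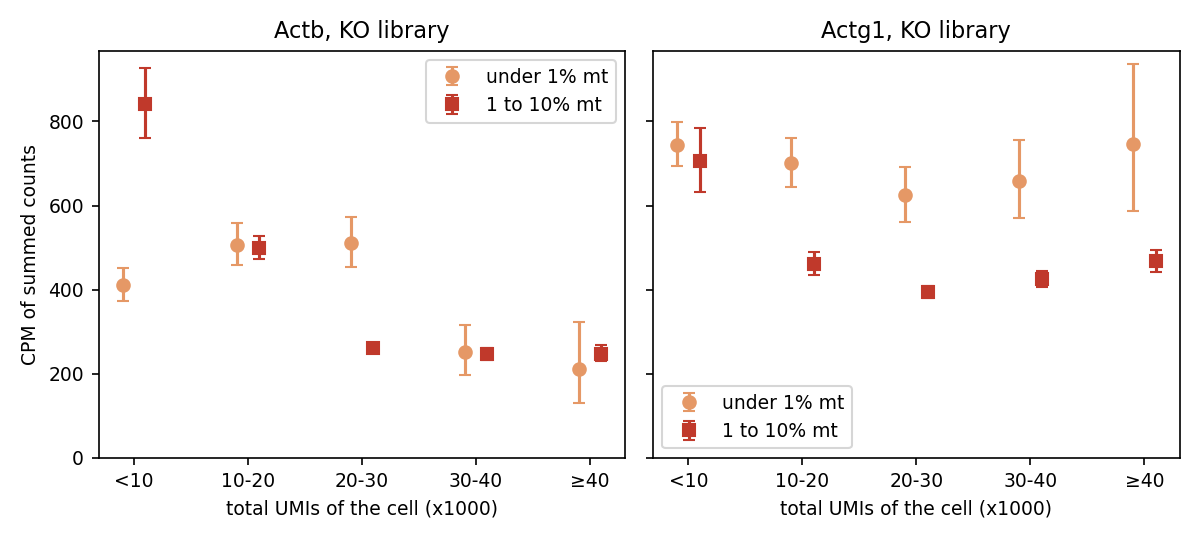
CPM of summed counts in the KO library (vertical axis) against the total UMIs of the cell (horizontal axis, in units of 1000) for Actb (left) and Actg1 (right), in cells under 1% mitochondrial counts (orange circles) and at 1 to 10% (red squares); bars are 95% counting intervals. For Actg1 the circles lie between 625 and 747 CPM in every class and above the squares, with overlapping intervals only in the shallowest class.

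The cell-to-cell correlation of Actb with Actg1 was weak in both libraries. Across the 838 thinned KO cells, Pearson's r on log2(UMIs + 1) was 0.12, and across the 866 WT cells it was -0.0032. These cells share 1 library per genotype, and both genes followed depth. Actb had r = -0.61 with the log2 total of the cell in WT and -0.26 in KO, while Actg1 had 0.17 and -0.16. Within depth classes of at least 50 cells, the r between the actins lay between 0.04 and 0.16 in both libraries. By mitochondrial share, it was -0.065 in the 145 KO cells under 1% and 0.11 in the 693 at 1 to 10%. For KO cells under 1%, r was 0.074 below 10000 UMIs (54 cells) and -0.23 at 10000 to 20000 UMIs (56 cells). In the 856 WT cells at 1 to 10% it was -0.0075. With the mitochondrial share, Actg1 had r = -0.35 in KO and -0.26 in WT, and Actb had -0.13 and 0.07. Without thinning, r was 0.40 in KO and -0.10 in WT. Correlations this weak in sparse counts are given as a description only.

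**Figure D5:**
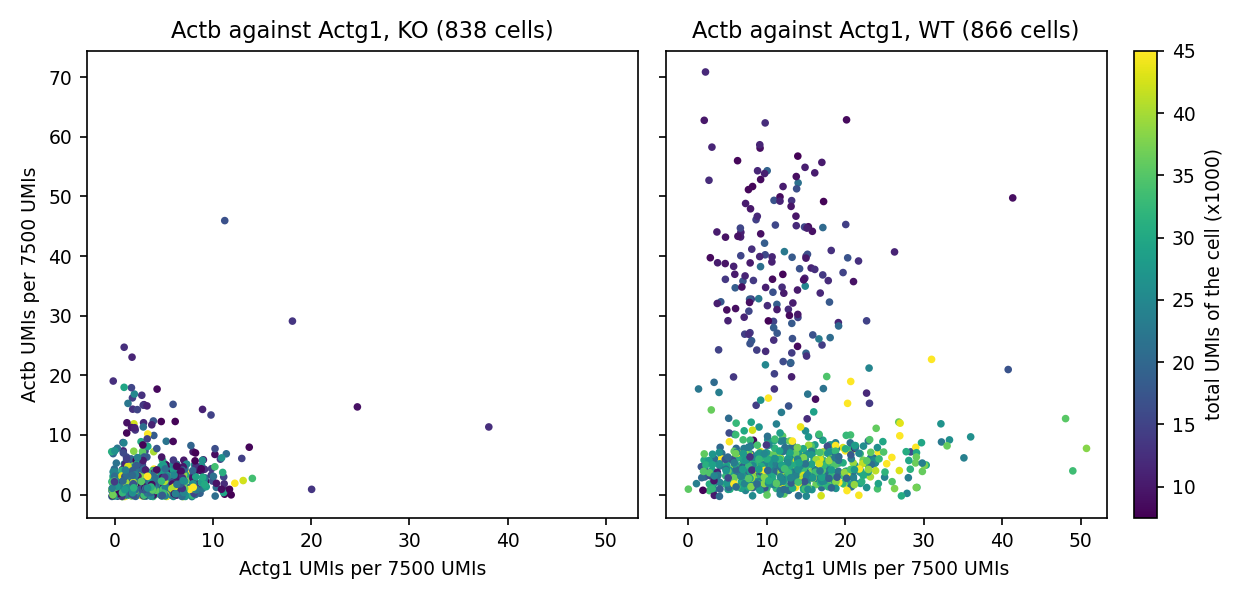
Thinned Actb UMIs (vertical axis) against thinned Actg1 UMIs (horizontal axis) in each KO cell (left, 838 cells) and WT cell (right, 866 cells), with points shifted at random by under 1 UMI so that they can be seen and coloured by the total UMIs of the cell before thinning. The 154 WT cells with at least 20 Actb UMIs are mostly dark, shallow cells, and they span much of the Actg1 range of the others.

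The 154 WT cells with at least 20 thinned Actb UMIs were selected by Actb itself, so their Actb level is a description. They had a median of 12087.5 UMIs and 2885.5 genes, against 28984 UMIs and 4443 genes in the other 712 thinned WT cells. Actb was at 4799 CPM in them and 651 CPM in the others, while Actg1 was at 1655 CPM and 1837 CPM. Pou5f1, which encodes the pluripotency factor Oct4, was at 776 CPM in them and 808 CPM in the others, and the pluripotency list summed to 13440 and 13334 CPM. The fibroblast list summed to 10.1 and 18.1 CPM, and the macrophage list to 99.6 and 29.1 CPM. Per kept WT cell, the macrophage list had a median of 0 CPM and a highest value of 20224 CPM, so its sums can rest on few cells. Srf was at 7.18 and 8.78 CPM and the immediate early gene Fos at 113 and 115 CPM. The share of mitochondrial counts had a median of 3.70% in them and 3.39% in the others. Low depth thus moved with high Actb, and its part in the result was not tested.

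The same WT cells were high in a small set of other genes. The genes most like Actb across WT cells, by r on thinned counts, were Rpgrip1 (0.67), Cbx3 (0.66), Supt16 (0.61) and Spry2 (0.58). After them came Myef2 (0.42), Wtap (0.39), Set (0.37), Actr2 (0.34), Arglu1 (0.31) and Prrc2c (0.29), and the lowest were Rpl18 (-0.23), Rpl8 (-0.23) and Rps10 (-0.21). Cbx3, which encodes the heterochromatin protein HP1 gamma, was at 757 CPM (720 to 795) in the 154 cells and 105 CPM (101 to 109) in the others. Supt16, a subunit of the histone chaperone FACT, was at 398 CPM against 52.4 CPM. Rpgrip1, a gene best known from photoreceptor cilia, was at 386 CPM against 23.2 CPM. Spry2, an inhibitor of receptor tyrosine kinase signalling, was at 374 CPM against 29.0 CPM. Each of these 4 genes had a UMI in at least 138 of the 154 cells. The 4 genes were picked by their r with Actb in WT cells, so their difference between cells split by Actb is a description. Only genes with a thinned mean of at least 0.5 UMIs over all thinned WT cells were ranked. That mean was 0.754 for Rpgrip1, 0.841 for Supt16 and 0.746 for Spry2, with the 154 cells included. A gene high in the 154 cells could thus pass the limit because of them. Whether Rpgrip1, Supt16 and Spry2 would pass it in the other cells alone was not tested.

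Rpgrip1 (chr14:52110704-52163546, plus strand) and Supt16 (chr14:52160414-52197416, minus strand) overlap by 3133 bases. As it is not stated whether counting used strand, their values cannot be told apart there. In WT cells of at least 20000 UMIs, r with Actb was 0.20 for Cbx3, 0.16 for Supt16, 0.12 for Rpgrip1 and 0.06 for Spry2, against 0.74, 0.62, 0.69 and 0.57 below that depth.

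A smaller number of KO cells had the same 4 genes high. In KO, 32 cells had 10 to 19 thinned Actb UMIs, with a median of 12871.5 UMIs per cell. In them Actb was at 1594 CPM, Cbx3 at 600.0 CPM, Supt16 at 367 CPM, Rpgrip1 at 321 CPM and Spry2 at 279 CPM. In the 802 KO cells under 10 Actb UMIs, those genes were at 269, 131, 58.7, 35.3 and 41.9 CPM. The summed CPM of the macrophage and fibroblast lists was also higher in the 32 cells, while that of the primitive endoderm list was lower. The macrophage list summed to 686 CPM against 10.5 CPM in the 802, and the fibroblast list to 281 against 16.5 CPM. UMIs of these lists were found in 6 and 8 of the 32 cells, and in 176 and 222 of the 802. The primitive endoderm list summed to 199.987 against 252.636 CPM, with UMIs in 9 of the 32 cells and 231 of the 802. Dab2 of that list was at 106 against 87.5 CPM, with overlapping intervals. Ctsb, a lysosomal protease gene, was at 354 against 44.3 CPM. The part of these genes in the Actb level of the 32 cells was not tested. The 4 KO cells with at least 20 Actb UMIs had 11095 CPM of the macrophage list, with UMIs of it in 2 of the 4, against 27.9 CPM in the other 834. The part of macrophage RNA in their Actb level was not tested. Without all thinned cells of at least 20 Actb UMIs, which leaves 834 KO and 712 WT cells, the log2 ratio was -1.11 (-1.15 to -1.06) for Actb and -2.02 (-2.05 to -1.99) for Actg1. That selection uses Actb itself and leaves out more WT than KO cells.

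Among the 10 genes most like Actb in KO cells were Cbx3 (0.25), Supt16 (0.21), Srgn (0.20), Glul (0.19), Dab2 (0.19), Lgmn (0.18), Tuba1c (0.17), Tagln2 (0.17) and Ctsb (0.16). Of the 10, Cbx3 and Supt16 were also among the 10 of WT. Only genes with a thinned mean of at least 0.5 UMIs in KO were ranked, so a gene under that limit could not appear. In KO cells under 20000 UMIs the r with Actb was 0.32 for Cbx3, 0.36 for Supt16, 0.42 for Rpgrip1 and 0.38 for Spry2. In the 544 deeper KO cells it was 0.19, 0.044, 0.10 and 0.15. Dab2 is 1 of the 8 primitive endoderm markers listed. The lowest were Chchd10 (-0.25), Tdgf1 (-0.25) and Ube2s (-0.21), of which Tdgf1 is a pluripotency marker.

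In WT, the genes closest to Actg1 were Npm1 (0.36), Gapdh (0.34), Hspa8 (0.34), Tubb5 (0.33), Slc25a5 (0.31), Tuba1b (0.30), Eno1 (0.29), Aldoa (0.28), Eif4a1 (0.26) and Ppia (0.25). In KO they were Eif4a1 (0.31), Pgam1 (0.30), Cct5 (0.30), Pkm (0.29), Ldha (0.29), Gapdh (0.29), Aldoa (0.29), Tubb5 (0.27), Cdc42 (0.27) and Ubb (0.27). Aldoa, Eif4a1, Gapdh and Tubb5 were in both sets, and Gapdh, Aldoa, Eno1, Pgam1, Pkm and Ldha encode enzymes of glycolysis and its last steps. None of the 10 genes of Actg1 was among the 10 of Actb in the same library. Sets of 10 from the 1783 genes ranked in KO or the 1694 in WT would rarely share any, so this is a description only. The lowest for Actg1 were Malat1 (-0.34), mt-Nd2 (-0.33) and Rps28 (-0.33) in KO, and Rps29 (-0.31), Rps19 (-0.25) and Rps27 (-0.24) in WT. Actg1 itself stood 46th among the genes most like Actb in KO and 796th in WT.

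KO cells with primitive endoderm markers had higher actin levels than the other KO cells. Actb was at 536 CPM (508 to 566) in the 113 marker-positive cells and 293 CPM (285 to 301) in the other 862. Actg1 was at 621 CPM (590 to 653) and 447 CPM (437 to 456). Actb made up 46.3% of actin UMIs in the former and 39.6% in the latter. Median CPM per cell was 383 against 244 for Actb and 571 against 414 for Actg1. At least 10 thinned Actb UMIs were found in 9 of 106 thinned marker-positive KO cells (8.49%) and in 27 of the 732 others (3.69%). The marker-positive class held 2 of the 4 KO cells with at least 20 thinned Actb UMIs. All 18 UMIs of the primitive endoderm list in those 4 cells were of Dab2. With the marker-positive cells left out of both libraries, the log2 ratio was -1.87 for Actb and -2.02 for Actg1. The class is a range of a marker sum, with 3 KO cells within 1 UMI below the limit and 12 within 1 above it.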

How the data were processed

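Single-cell RNA sequencing libraries of 1 KO and 1 WT iPSC culture were analysed; the members and gene lists were chosen with earlier results of these data known. The deposited matrices hold integer UMI counts per gene and cell, not normalised, per the file headers. The submitters' processing notes name Cell Ranger 2.0.0, Seurat 3.1.1 and mm10, with no role or order. The chemistry, the annotation used for counting and the rule for calling cells are not given in the sources used here.

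Counts were summed over kept cells and scaled to CPM (UMIs per 1000000), and log2 ratios were taken with 0.5 counts added to each sum. Intervals at 95% were exact: Poisson for levels, conditional binomial for ratios, Clopper-Pearson for shares. UMI intervals cover counting error only. Over all kept cells, a count of 0 has an upper limit of 0.175 CPM in KO and 0.157 CPM in WT. Cells were thinned to 7500 UMIs without replacement, and shallower cells were left out. Scrublet (scanpy 1.11.5) called 2 KO and 5 WT doublets, which were kept; so few calls may leave doublets among the cells. TMM factors came from edgeR 4.0.16 in R 4.3.3. Python 3.11.15 with scipy 1.17.1 ran the rest, and the computations were tested on simulated data.

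The named genes were the actins and Srf, the 10 genes of highest and 3 of lowest r with each actin per library, and list members past 2-fold or at either end of a list; 1 gene that this rule names is not reported here. Supt16, Rpgrip1 and Spry2 in KO cells, Pou5f1, Fos, Mkl1, Mkl2, Tagln, Myl9, Vcl, Fhl2, Gapdh and Ppia were named after their values were seen. The counts of Acta1, Acta2 and Actg2 were likewise added after they were seen. Alternatives covered cell filters, scaling, thinning depth and the measure of correlation.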

Additional observations from a re-analysis of the deposited data

Results flagged for a closer look

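Cells with at least 5 UMIs of the fibroblast genes Col1a2, Col3a1 and Acta2 were left out of the comparisons, and their actin levels were above those of the kept WT cells. The 22 such cells of the KO library had 3160 CPM of Actb and 2911 CPM of Actg1. The 10 such cells of the WT library had 2994 CPM of Actb and 3356 CPM of Actg1. In these cells the log2 ratio of KO over WT was 0.08 (-0.06 to 0.22) for Actb and -0.21 (-0.34 to -0.07) for Actg1. Acta2 is itself an actin and was used to select them.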

How the results depend on the processing

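No paired analysis was possible because there is 1 library of KO and 1 of WT cells, which also means that no replicate could be left out. The direction of the KO over WT log2 ratio held for both actins under all 13 alternatives run for each. Those ratios, Actb then Actg1, were -1.82 and -2.08 without the cells under 1% mitochondrial counts, -1.43 and -1.77 with fibroblast-marker cells kept, and -1.66 and -1.87 with a mitochondrial limit of 5%. They were -1.87 and -2.02 without primitive endoderm-marker cells, -1.80 and -2.03 with TMM scaling, and -1.82 and -2.04 with median of ratios scaling. The mean of per-cell CPM gave -2.05 and -1.76, so Actb then had the lower ratio. A minimum of 2000 genes gave -2.01 for Actg1. Chosen after seeing the data, cells of at least 20000 UMIs gave -1.40 and -2.11, and leaving out macrophage-marker cells gave -1.79 for Actb.

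The KO minus WT difference in the Actb share of actin UMIs, 3.74 percentage points, was 5.67 with fibroblast-marker cells kept, 4.76 with at least 2000 genes and 2.59 without primitive endoderm-marker cells. It was 10.6 in cells of at least 20000 UMIs and 1.79 as a mean of per-cell shares. The difference in the share of cells, -13.8 points for Actb and -8.48 for Actg1, was -22.6 and -14.9 with thinning to 5000 UMIs, -4.77 and -1.79 with 15000 UMIs, and -2.76 and -1.74 with no thinning. It was -47.1 and -41.2 for cells with at least 3 thinned UMIs, and for Actg1 -5.51 with a mitochondrial limit of 5%.

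The log2 ratio of excess CV2 for Actb, -0.21, turned positive with fibroblast-marker cells kept (0.39) and with no thinning (0.64). It was -0.71 with a mitochondrial limit of 5%, -0.58 without primitive endoderm-marker cells and -0.65 without macrophage-marker cells. For Actg1, 1.27 became 2.16 with fibroblast-marker cells kept, 0.94 with at least 2000 genes and 0.54 in cells of at least 20000 UMIs. Thinning to 5000 UMIs gave 1.52, thinning to 15000 UMIs gave 0.31 and no thinning gave 0.081.

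The r of Actb with Actg1 in KO was 0.23 with fibroblast-marker cells kept, 0.041 in cells of at least 20000 UMIs, 0.20 with thinning to 5000 and to 15000 UMIs, and 0.40 with no thinning. In WT it was 0.094 in cells of at least 20000 UMIs, 0.083 with thinning to 15000 UMIs and -0.10 with no thinning. With a minimum of 1 CPM, 210 genes were past 2-fold downward and 352 upward, against 37 and 73. The causes of these shifts were not tested. Depth limits the zero counts of KO cells: at 7500 UMIs a cell without an actin UMI may still express the gene.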

Other observations

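Cells with over 10% mitochondrial counts, also left out, were 71 in KO and 33 in WT among those with fewer fibroblast-marker UMIs than the limit. In KO they had 309 CPM of Actb (265 to 357) and 239 CPM of Actg1 (201 to 282), and in WT 706 CPM (608 to 816) and 1180 CPM (1052 to 1319).

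Cells with at least 5 UMIs of the macrophage list (Ptprc, Tyrobp, Fcer1g, Lyz2, Cd68, Pf4) numbered 5 in KO and 8 in WT. Actb was at 4010 CPM in the KO ones and 691 CPM in the WT ones, and Actg1 was at 1668 and 1662 CPM. Without them Actb was at 311 CPM in KO and 1072 CPM in WT.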
